A study of Mus musculus with 6 samples.

Results

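A set of 10 genes that make, remove and carry retinoic acid was followed in P19 cells given a control siRNA or an siRNA against Baf45d. They were chosen by name for their known function. They comprise the cytochromes Cyp26a1, Cyp26b1 and Cyp26c1, the aldehyde dehydrogenases Aldh1a1, Aldh1a2 and Aldh1a3, the retinol dehydrogenase Rdh10, the retinal reductase Dhrs3 and the binding proteins Crabp1 and Crabp2. All 10 were found, 1 row each, among the 54532 genes of the deposited table.

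P19 cells, a line from a mouse embryonal carcinoma, turn towards neural cells when given retinoic acid. Cells of the 3 control libraries were transfected with a negative control (NC) siRNA and cells of the other 3 with an siRNA against Baf45d, the product of Dpf2 and part of the chromatin remodelling complex BAF. All 6 libraries come from the same line after 5 days of all-trans retinoic acid. The dose is not given in the sources used here, and no library of cells without retinoic acid or without siRNA was analysed here. The transfection was transient, and the samples are labelled as biological replicates with no mention of separate cultures, so the p-values measure the spread between these samples.

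Retinoic acid is made from retinol in a pair of oxidations. Rdh10 turns retinol into retinal, Dhrs3 turns retinal back into retinol, and the Aldh1a enzymes oxidise retinal irreversibly to retinoic acid. The Cyp26 enzymes hydroxylate retinoic acid for removal, and Cyp26a1 and Dhrs3 are known to be induced by retinoic acid itself, which gives a negative feedback. Crabp1 and Crabp2 hold retinoic acid in the cytosol, and Crabp2 is known to pass it to the nuclear receptors, which bind paired half-sites in DNA. In the mouse embryo, Aldh1a2 of the trunk mesoderm is the main early source of retinoic acid, while Cyp26 enzymes keep the hindbrain and tail bud low in it.

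The sequence through which retinoic acid receptors are classically known to act could be looked for in the promoters of 7 of the 10 genes, which had an entry in the RefSeq promoter table (GRCm38.p6). The motif searched was the DR5 element, a pair of half-sites in the same direction with 5 bases between them, on both strands, from 250 bases before to 50 bases after each start that RefSeq gives, which can differ from the start in the deposited table. The half-sites were AGGTCA, found in 16.3% of windows, AGTTCA in 14% of them, GGGTCA in 13.7% and GGTTCA in 10.4%, and 43.7% of windows held any. The DR5 element was present in 0.0974% of 32851 promoter windows. Of the 10 windows of these genes only that of Cyp26a1 held it, from 32 to 16 bases before the start. The 250 bases before the start are shown for Cyp26a1, the gene with the match, and for Dhrs3, an abundant transcript without a half-site in its windows. They are chr19:37697558-37697807 (plus strand) for Cyp26a1 and chr4:144892577-144892826 (plus strand) for Dhrs3, printed along the gene's strand with half-sites in capitals.
Cyp26a1: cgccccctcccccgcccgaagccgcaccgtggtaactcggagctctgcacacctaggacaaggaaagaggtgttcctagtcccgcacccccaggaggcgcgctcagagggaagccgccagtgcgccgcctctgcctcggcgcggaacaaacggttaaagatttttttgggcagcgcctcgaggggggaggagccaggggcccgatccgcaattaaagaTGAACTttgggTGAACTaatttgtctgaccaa
Dhrs3: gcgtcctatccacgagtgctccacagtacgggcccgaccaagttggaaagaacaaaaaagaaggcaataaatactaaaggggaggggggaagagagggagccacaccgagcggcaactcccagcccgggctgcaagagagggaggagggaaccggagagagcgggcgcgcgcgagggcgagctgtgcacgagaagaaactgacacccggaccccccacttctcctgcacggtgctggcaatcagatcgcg

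The match in Cyp26a1 lies on the strand opposite to the gene, so its half-sites appear above as their reverse complement. Rarb, the retinoic acid receptor gene that is a classical target of retinoic acid, held a DR5 element from 53 to 37 bases before a start that RefSeq gives. The pair is shown 5′ to 3′ on the strand that carries the half-sites, which are in capitals.
Cyp26a1 site (chr19:37697776-37697792, minus strand): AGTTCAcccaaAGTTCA
Rarb site (chr14:16575513-16575529, minus strand): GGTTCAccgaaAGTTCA
Among the 10 windows of the retinoid genes 2 held any half-site. These were the Cyp26a1 window and the second Aldh1a1 window, which had a single GGGTCA. The search says only which letters these windows hold.

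The 6 libraries held from 17127876 to 21224822 counts. Dpf2, the targeted gene, gave 23.9, 23.59 and 24.11 FPKM in the NC libraries and 22.66, 21.63 and 22.61 FPKM in the Baf45d libraries (log2 fold change -0.10, SE 0.07, edgeR adjusted p = 0.996). Every Baf45d library was below every NC library, where 8.03% of all genes tested had groups without overlap in FPKM. The 95% interval of the change ran from -16.1% to 3.98%. The median absolute log2 fold change over all genes tested was 0.0993, so that of Dpf2 (-0.0983) was no larger in size. The transcript is therefore a weak check of the labels, which name the groups here. Whether Baf45d was lost in these cells was not tested, so the comparison is between the siRNA groups as labelled. For Gapdh, Baf45d replicate 3 stood apart at 236.2 counts scaled to library size (CPM), where the remaining libraries lay between 14.02 and 31.17, and results that turn on that library are given with and without it. Marker genes of neurons and neural progenitors were present in all libraries, at summed levels of 189.1 to 292.5 and 318.5 to 366.5 FPKM. Vim gave the largest part of the progenitor sum, at 146.5 to 185.3 FPKM. Pax6 (1.124 to 1.62 FPKM), Fabp7 (0.3364 to 1.522 FPKM) and Hes5 (0.3085 to 0.7354 FPKM) were the lowest, and the other progenitor markers lay between. The 10 pluripotency markers together reached 4.101 to 5.206 FPKM, with Zfp42, Dppa3 and Dppa5a at 0 counts throughout. Among those detected in every library were Klf4 (1.241 to 2.1 FPKM), Pou5f1 (1.412 to 1.884 FPKM) and Nanog (0.4584 to 1.018 FPKM). Endoderm markers summed to 23.86 to 25.54 FPKM with NC siRNA and 20.37 to 23.74 FPKM with Baf45d siRNA, without overlap, with Afp at 0 counts. Of 5 tested endoderm genes 0 passed the threshold, 3 had a positive and 2 a negative log2 fold change. The 2 were Gata6 (-0.31, SE 0.10) and Sox7 (-0.55, SE 0.17), with edgeR unadjusted p = 0.00913 and 0.00965 (adjusted p = 0.996 for each). That is 2 of 5 with an unadjusted p under 0.05, against 2.85% of all genes tested. The part of cells of these types in the retinoid values was not tested.

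The clearance gene Cyp26b1 had the highest level of the 10 genes. Levels between genes are compared in FPKM, the authors' counts scaled to gene length and library size. Cyp26b1, a retinoic acid hydroxylase (chromosome 6, 84571414 to 84593908, minus strand, GRCm38), stood at 597.3, 539.2 and 500.4 FPKM in NC replicates 1 to 3 and at 638.3, 504.5 and 428.5 FPKM in Baf45d replicates 1 to 3. Baf45d replicate 1 was the highest library and Baf45d replicate 3 the lowest, so the NC values lay within the range of the Baf45d values. By raw count Cyp26b1 ranked between 4 and 8 among the 54532 genes in every library and took from 0.228% to 0.345% of all counts. Per length it ranked between 26 and 52.

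Its family members were far lower. Cyp26a1, the hydroxylase known as an early target of retinoic acid (chromosome 19, 37697808 to 37701528, plus strand), stood at 31.52, 30.07 and 27.7 FPKM in the NC libraries and at 27.98, 25.98 and 25.84 FPKM in the Baf45d libraries. The lowest NC value lay just under the highest Baf45d value, so the groups overlapped by that pair of libraries. In FPKM, Cyp26b1 exceeded Cyp26a1 by 16.58 to 22.82 times within each library, and it supplied from 94.23% to 95.66% of the summed Cyp26 FPKM.

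Cyp26c1, a hydroxylase known from the embryonic hindbrain (chromosome 19, 37685581 to 37693398, plus strand), gave 16, 16 and 17 counts in the NC libraries and 30, 6 and 13 counts in the Baf45d libraries. The count of 30 has an exact Poisson interval from 20.2 to 42.8 and the count of 6 one from 2.2 to 13.1 (95%, counting error only), so these 2 Baf45d libraries differed by more than counting error. Cyp26c1 ends 4409 bases before the start of Cyp26a1 on the same strand. Cyp26a1 stood 28.9 to 128.1 times above it in FPKM within each library.

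Dhrs3, which reduces retinal to retinol (chromosome 4, 144892827 to 144928209, plus strand), was the next most abundant, at 200.5, 195.8 and 174.7 FPKM with NC siRNA and 184.7, 189.7 and 170.5 FPKM with Baf45d siRNA. The highest library exceeded the lowest by 1.18 times, and the groups overlapped. Rdh10, which catalyses the opposite reaction (chromosome 1, 16105774 to 16133734, plus strand), stood at 3.817, 3.627 and 3.949 FPKM and at 3.699, 3.762 and 4.219 FPKM. Dhrs3 exceeded Rdh10 by 40.42 to 53.99 times in FPKM within each library.

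Of the Aldh1a enzymes, Aldh1a2 (chromosome 9, 71215789 to 71296243, plus strand) supplied from 97.51% to 98.74% of the summed FPKM. It stood at 20.82, 23.11 and 19.68 FPKM in the NC libraries and at 25.35, 28.07 and 22.01 FPKM in the Baf45d libraries. Baf45d replicates 1 and 2 lay above all NC libraries, and Baf45d replicate 3 lay below NC replicate 2. Aldh1a3, known from the eye and nasal region of the embryo (chromosome 7, 66390890 to 66427517, minus strand), gave 21, 26 and 21 counts with NC siRNA and 8, 13 and 32 counts with Baf45d siRNA, with NC values in the middle of the Baf45d range. Aldh1a1, known from the dorsal retina and from dopaminergic neurons (chromosome 19, 20492715 to 20643462, plus strand), gave 4, 22 and 22 counts and 21, 16 and 13 counts. NC replicate 1 was the low library, and its 4 counts have an exact Poisson interval from 1.09 to 10.2. The 22 counts of NC replicates 2 and 3 each have one from 13.8 to 33.3, so NC libraries differed by more than counting error.

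Of the binding proteins, Crabp2 (chromosome 3, 87948666 to 87953376, plus strand) stood at 82.48, 86.23 and 73.76 FPKM with NC siRNA and at 98.37, 92.24 and 80.08 FPKM with Baf45d siRNA. The groups overlapped, with Baf45d replicates 1 and 2 above all NC libraries. Crabp1 (chromosome 9, 54764748 to 54773110, plus strand) stood at 32.03, 28.25 and 32.36 FPKM and at 39.36, 26.66 and 25.41 FPKM. Here Baf45d replicate 1 was the highest and the other two Baf45d libraries the lowest, on either side of the NC values. Crabp2 exceeded Crabp1 by 2.28 to 3.461 times in FPKM within each library.

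**Figure D1:**
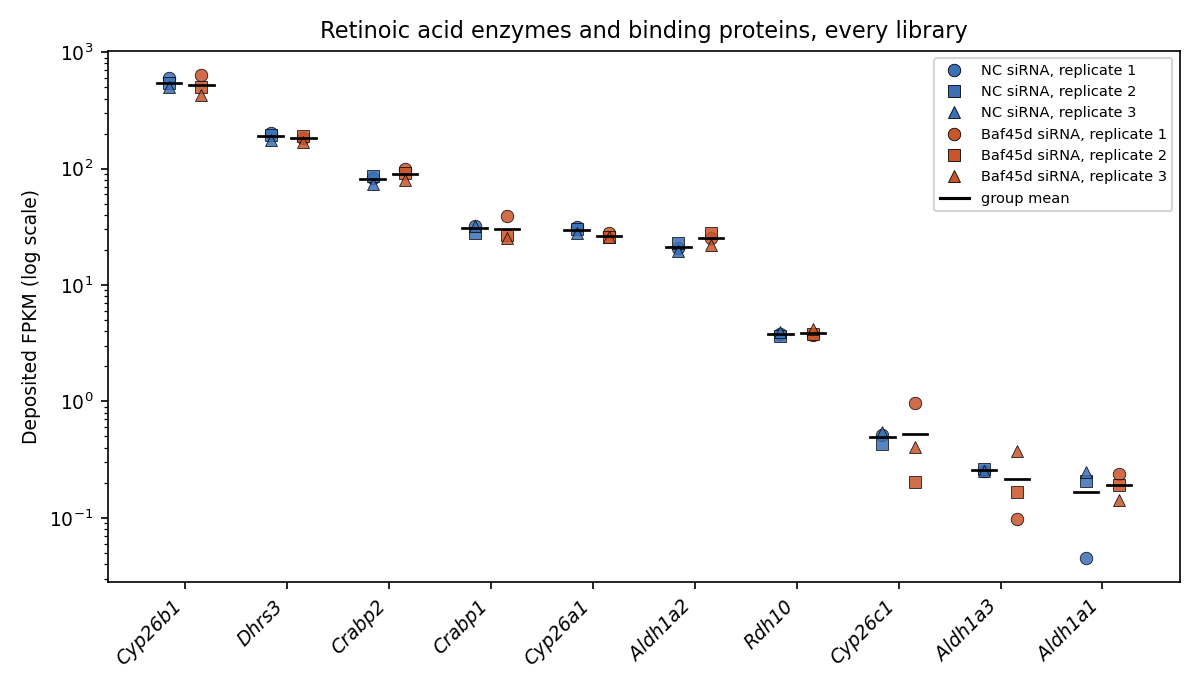
Deposited FPKM (log scale) of the 10 genes in each library, ordered by mean level. Symbols mark the replicate number, colours the siRNA, and black bars the mean of 3 libraries. Cyp26b1 leads in every library, from 428.5 to 638.3 FPKM, and the 3 lowest genes stay under 1 FPKM.

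The order of levels was Cyp26b1, Dhrs3, Crabp2, Crabp1, Cyp26a1, Aldh1a2, Rdh10, Cyp26c1, Aldh1a3 and Aldh1a1 by the mean over 6 libraries. Cyp26b1, Dhrs3, Crabp2, Rdh10 and Cyp26c1 held the same rank in every library. Crabp1 and Cyp26a1 overlapped in range, with Crabp1 higher in 4 of 6 libraries, and Cyp26a1 and Aldh1a2 overlapped as well, with Cyp26a1 higher in 5 of 6. At the bottom Cyp26c1 overlapped with Aldh1a3, and Aldh1a3 with Aldh1a1. The other neighbours did not overlap between any libraries. Summed by role, clearance transcripts reached 454.8 to 667.3 FPKM and the synthesis transcripts Rdh10 and Aldh1a1 to Aldh1a3 together 24.13 to 32.19 FPKM, a ratio of 16.49 to 25.24 within libraries. These are transcript levels and not enzyme activities.

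The question of the comparison is whether the retinoid genes differ between Baf45d and NC siRNA. They did not pass the test: none of the 10 had an adjusted p under 0.05 in edgeR's quasi-likelihood test, where 0 of 16078 genes passed (0%). All 10 passed the filter on low counts, 5 had a positive and 5 a negative log2 fold change, and the median was 0.01, as over all genes tested (0.01). None had an unadjusted p under 0.05, against 2.85% of all genes, and in none did the groups fail to overlap in FPKM, against 8.03% of all genes. In RNA from whole cultures, fewer cells of a type and less RNA per cell cannot be told apart. The authors' deposited table likewise lists no gene with an adjusted p under 0.05, and its smallest unadjusted p among the 10 is 0.0572, for Aldh1a2.

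Aldh1a2 had the smallest p of the 10. It stood at 21.2 ± 1.75 FPKM with NC siRNA and 25.1 ± 3.03 FPKM with Baf45d siRNA (SD, n = 3), a log2 fold change of 0.24 (SE 0.11, 95% interval from -0.0011 to 0.49), with an unadjusted p of 0.0508 and an adjusted p of 0.996 in edgeR. It was higher with Baf45d siRNA in 3 of 3 pairs of the same replicate number. With the replicate number as a block the log2 fold change was 0.24 (SE 0.08, edgeR unadjusted p = 0.00736, adjusted p = 0.498). Without Baf45d replicate 3 it was 0.33 (edgeR adjusted p = 0.196). In the fit without that library 2170 of 16366 genes had an unadjusted p under 0.05, and 44 passed the threshold. With all 6 libraries these were 459 of 16078 genes and 0. Markers of paraxial mesoderm and mesenchyme, where Aldh1a2 is known to be expressed in embryos, had 0 of 9 tested genes past the threshold. Of these 7 had a negative log2 fold change, the median was -0.27, and their summed level ran from 140.7 to 185.6 FPKM with NC siRNA and from 140.8 to 150.3 FPKM with Baf45d siRNA. Of that list Meox2 had 0 counts in all NC libraries. The part of such cells in the Aldh1a2 values was not tested.

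Crabp2 stood at 80.8 ± 6.40 and 90.2 ± 9.31 FPKM (SD, n = 3), with a log2 fold change of 0.16 (SE 0.10, 95% interval from -0.06 to 0.38, edgeR adjusted p = 0.996). It too was higher in 3 of 3 pairs, and with the block its unadjusted p was 0.035 and its adjusted p 0.625. Aldh1a2 and Crabp2 were the 2 of 10 genes with an unadjusted p under 0.05 in the blocked fit, where 7.75% of all genes had one and 0.00622% (1 gene) passed after adjustment. Crabp1 had a log2 fold change of -0.02 (SE 0.16), with a 95% interval of the change from -23.5% to 27.4%. Its sign turned without NC replicate 1 (0.01), NC replicate 3 (0.02), Baf45d replicate 2 (0.07) or Baf45d replicate 3 (0.10).

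Cyp26a1 stood at 29.8 ± 1.93 and 26.6 ± 1.20 FPKM (SD, n = 3), a log2 fold change of -0.16 (SE 0.09, 95% interval from -0.36 to 0.04, edgeR adjusted p = 0.996), lower with Baf45d siRNA in 3 of 3 pairs. Dhrs3 was also lower in 3 of 3 pairs, with a log2 fold change of -0.07 (SE 0.08) and an interval from -16.2% to 8.62%. Together with Aldh1a2 and Crabp2, 4 of the 10 genes moved one way in all 3 pairs, against 28.5% of all genes tested. For Cyp26b1 the log2 fold change was -0.06 (SE 0.14), with an interval from -22.5% to 19%, and its sign turned without NC replicate 1 (0.01) and without Baf45d replicate 3 (0.07). Rdh10 had a log2 fold change of 0.04 (SE 0.12) and an interval from -14.5% to 23%, and stood at -0.0233 without Baf45d replicate 3.

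For the 3 scarce genes the data set only wide limits. The 95% intervals ran from 0.497 to 2.31 fold for Cyp26c1, from 0.519 to 2.48 fold for Aldh1a1 and from 0.424 to 1.65 fold for Aldh1a3. Their log2 fold changes of 0.10, 0.18 and -0.26 rested on single libraries. Without Baf45d replicate 1 they were -0.68 for Cyp26c1, -0.02 for Aldh1a1 and 0.09 for Aldh1a3, without NC replicate 1 Aldh1a1 stood at -0.25, and without Baf45d replicate 3 Aldh1a3 stood at -0.96. The spread between libraries, beyond counting error for all 3 genes, adds to the counting error of such low counts.

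**Figure D2:**
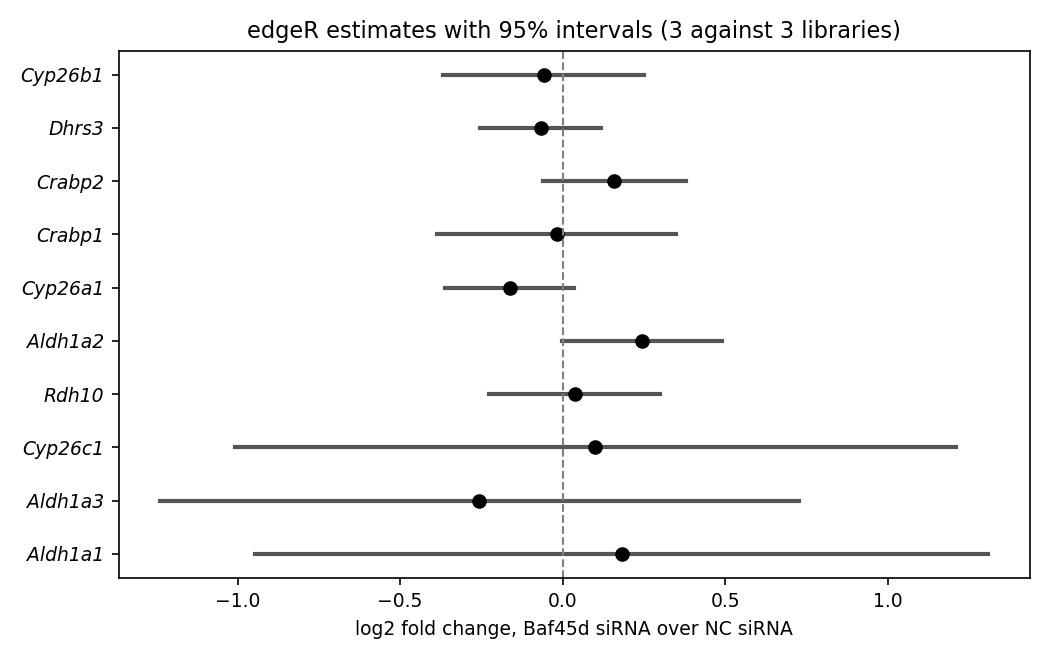
Log2 fold change of each gene, Baf45d over NC siRNA, from edgeR (points) with 95% intervals (bars), 3 against 3 libraries, in the order of level. Every interval includes 0. Among the 3 scarce genes at the bottom the lowest end is about -1.24 (Aldh1a3) and the highest about 1.31 (Aldh1a1).

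**Figure D3:**
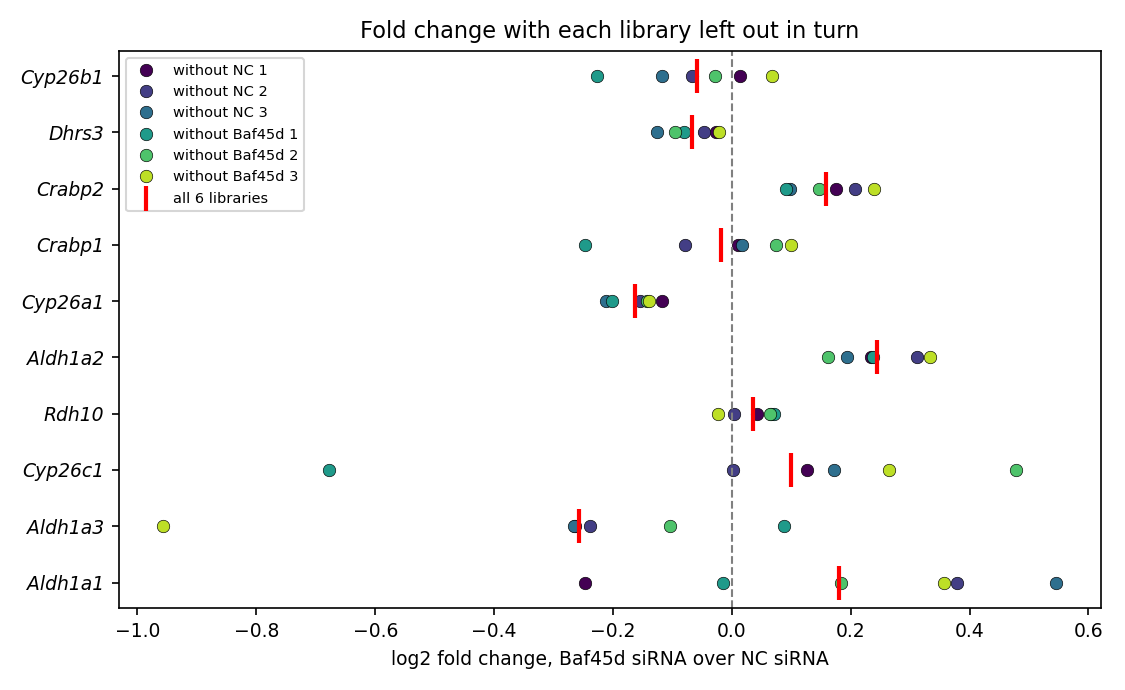
Log2 fold change of each gene with 1 library left out (coloured points, 6 per gene) and with all 6 libraries (red bar). Cyp26a1, Dhrs3, Aldh1a2 and Crabp2 keep their sign in all 6 omissions, whereas Cyp26c1 runs from -0.68 to 0.48 and Aldh1a3 from -0.96 to 0.09.

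The spread between libraries was wider in the Baf45d group for most of the 10 genes, as it was for most genes tested. The coefficient of variation of FPKM was 8.95% among NC and 20.3% among Baf45d libraries for Cyp26b1, and 7.39% and 25.3% for Crabp1. It was wider in the Baf45d group for 7 of the 10 genes, close to the 72.1% of all tested genes with a wider spread there. In the NC group it was wider for Cyp26a1 (6.47% against 4.5%), Dhrs3 (7.21% against 5.46%) and Aldh1a1 (64.3% against 25.3%). Among the 7 genes with at least 100 counts in every library, Baf45d replicate 3 was the lowest library for Cyp26a1, Cyp26b1, Dhrs3 and Crabp1 and the highest for Rdh10, where 20.5% of all tested genes had their lowest and 21.1% their highest level. Baf45d replicate 1 was the highest for Cyp26b1, Crabp1 and Crabp2. The summed neuron markers were highest in Baf45d replicate 1 (292.5 FPKM) and lowest in Baf45d replicate 3 (189.1 FPKM), with 223.2, 206.2 and 209.5 FPKM in the NC libraries and 246.9 FPKM in Baf45d replicate 2. Tubb3 gave the largest part of that sum, with 162.4 FPKM in Baf45d replicate 1 and 93.97 FPKM in Baf45d replicate 3. Gap43, Map2, Stmn2 and Elavl4 were highest in Baf45d replicate 2, Nefl in NC replicate 3 and the other markers in Baf45d replicate 1. Gap43 and Map2 were lowest in NC libraries, and the others in Baf45d replicate 3. Of these 10 markers 9 had a positive log2 fold change and none was at 0. Their part in the retinoid values was not tested.

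**Figure D4:**
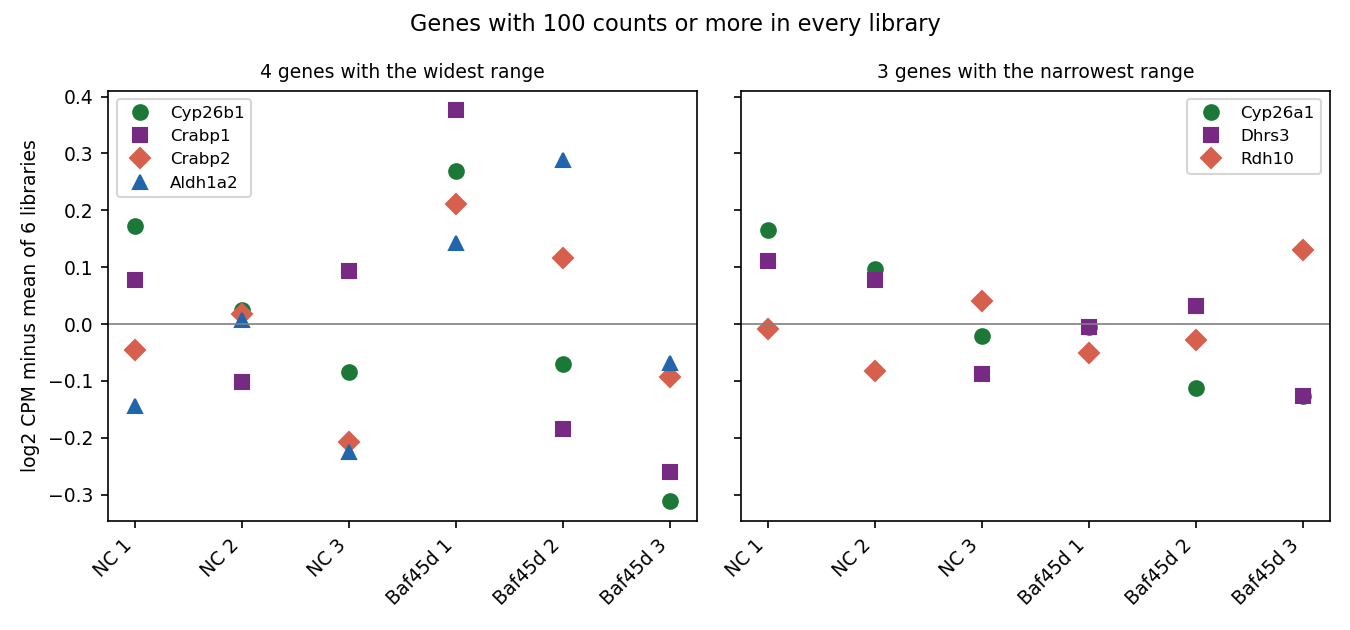
Log2 CPM of the 7 genes with at least 100 counts in every library, each minus its mean over 6 libraries, by library. Cyp26b1 and Crabp1 span the distance between Baf45d replicate 1 (0.27 and 0.38) and Baf45d replicate 3 (-0.31 and -0.26), while Rdh10 stays within -0.08 to 0.13.

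The profile of Cyp26b1 over the 6 libraries was matched closely by other genes. By the root mean square difference of centred log2 CPM, among 11110 genes at a mean of 5 CPM or more, symbols of the Gm and Rik series left out, the nearest were Pou3f1, a neural POU factor, at 0.0235 and Grik5, a kainate receptor subunit, at 0.0292, against a root mean square of 0.188 for Cyp26b1 itself. Pou3f1 gave 252, 222 and 213 CPM in the NC libraries, then 271, 210 and 174 CPM in the Baf45d libraries. It was highest and lowest in the same libraries as Cyp26b1, which follows from its being picked for a like profile. Cyp26b1 was chosen for this after its values were seen. By the stated rule the 3 genes of widest range, all scarce, were also matched. Aldh1a3 was nearest to Filip1l (0.163) and the activin subunit gene Inhba (0.192), against its own 0.543. Inhba gave 15, 13.6 and 16.7 CPM in the NC libraries, then 8.68, 10.9 and 20.4 CPM in the Baf45d libraries. Cyp26c1 was nearest to Mamdc4 (0.309) and Galnt2 (0.322) against its own 0.58, and Aldh1a1 to Lmcd1 (0.471) and Prkaa2 (0.487) against its own 0.69. These are descriptions over 6 libraries out of many candidates.

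Other genes of retinoid metabolism and transport did not pass either. Of 31 such genes 16 passed the filter, 5 with a positive and 11 with a negative log2 fold change, a median of -0.04, and 0 passed the threshold. Their summed level was 230.9 to 233.2 FPKM with NC siRNA and 222.9 to 227.8 FPKM with Baf45d siRNA, without overlap. Stra6, which encodes the membrane receptor that takes up retinol, stood at 44.8 ± 4.003 FPKM with NC siRNA and 39.3 ± 2.49 FPKM with Baf45d siRNA (SD, n = 3, log2 fold change -0.19, SE 0.09). Rdh5, a retinol dehydrogenase gene, stood at 1.11 ± 0.125 and 0.788 ± 0.114 FPKM (log2 fold change -0.50, SE 0.23). It was the 1 of 16 tested genes of the list whose groups did not overlap, against 8.03% of all genes tested. Stra6l stood at 0.334 ± 0.0466 and 0.475 ± 0.212 FPKM. Lrat, which stores retinol as esters, stood at 0.413 ± 0.0338 and 0.436 ± 0.0401 FPKM, and Rpe65 and Sdr16c5 had 0 counts in all libraries. The edgeR adjusted p of these genes that were tested ran from 0.996 to 0.999.

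Of 29 rows for retinoic acid receptors and target genes 26 passed the filter, 10 with a positive and 16 with a negative log2 fold change, a median of -0.01, and 0 passed the threshold. Hoxb1, a direct target in the hindbrain, stood at 2.13 ± 0.125 FPKM with NC siRNA and 1.33 ± 0.369 FPKM with Baf45d siRNA (SD, n = 3, log2 fold change -0.68, SE 0.23, edgeR unadjusted p = 0.0142, adjusted p = 0.996), without overlap of the groups. Rarg, a retinoic acid receptor gene, stood at 5.03 ± 0.827 and 3.77 ± 0.334 FPKM (log2 fold change -0.42, SE 0.14, unadjusted p = 0.0157, adjusted p = 0.996). These were the 2 of 26 with an unadjusted p under 0.05, against 2.85% of all genes tested. Nr2f2 and Foxa1 followed, at log2 fold changes of -0.19 (SE 0.09) and -0.35 (SE 0.24). The authors' deposited table of Reactome terms lists Rarg and Cpt1a, both down, under signaling by retinoic acid, at an adjusted p of 0.438, and none of the 10 genes appears in it.

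Rarb, which like Cyp26a1 carries the DR5 element shown above, stood at 24.1 ± 0.622 FPKM with NC siRNA and 23.1 ± 1.26 FPKM with Baf45d siRNA (SD, n = 3). Its log2 fold change of -0.07 (SE 0.08) did not pass (edgeR adjusted p = 0.996). Of 31 genes with that element in a promoter window 8 were tested, with adjusted p = 0.996 for each, and the smallest unadjusted p was 0.0218, for Syndig1. Hoxa5, the gene of highest level on the list, stood at 208.6 ± 2.89 and 197.7 ± 3.22 FPKM (SD, n = 3, log2 fold change -0.08, SE 0.07), without overlap of the groups. Hoxb1 and Hoxa5 were the 2 of 26 tested rows of the list without overlap, against 8.03% of all genes tested.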

How the data were processed

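RNA of 6 P19 libraries was analysed, 3 per group. Per the file headers, the authors deposited 1 table with the raw counts of each library by gene, and with FPKM beside them, which equalled counts per kilobase divided by 1 constant per library. The same table holds the authors' group means as a signal of normalized counts, which was not used, their log2 fold change and their p-value. The authors also deposited term tables with gene numbers and p-values, and protein pairs with a score, where none of the 10 genes appears. The submitters' processing notes name DESeq2 1.16.1 and mm9, but 98.3% of 54409 gene positions equal those of GENCODE M21, so coordinates are given as GRCm38. Which aligner and counter were used, and whether strand was, is not given. Of the transcripts' 31-base stretches, 5.7% of those of Aldh1a1 are shared with Aldh1a7 and 2.26% of those of Aldh1a3 with other genes, and 0 for the other 8 genes. Aldh1a1 also overlaps an antisense gene with 2 counts in all.

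Counts were tested with edgeR 4.0.16 (R 4.3.3), with filterByExpr, TMM factors and robust quasi-likelihood F tests on group alone, two-sided, Benjamini-Hochberg adjusted over 16078 genes at 0.05. The procedure was tested on simulated data. Alternatives were other scalings, no filter, DESeq2 1.42.0, limma 3.58.1 (voom, and log2 FPKM with a pseudocount of 1 or 0.1), a replicate block and omission of libraries. Within a group, counts of any pair of libraries differed beyond sampling error (chi-square over its degrees of freedom 3.33 to 23). That does not show that the libraries came from separate cultures. Each was counted as its own sample, following the labels. Between same-numbered libraries, deviations from the mean of each group had r = 0.17, 0.13 and 0.35 over genes, against -0.24 to 0.12 for the others (0.12 for NC 1 with Baf45d 2). Each same-numbered r was over 0.1, but so was the crossed 0.12, and replicates 1 and 2 are hardly told from their crossed pairs. These r values do not settle whether the numbers pair the samples, and the labels do not state it. The main fit was on group alone, with the blocked fit and the same-numbered pairs given beside it. The genes, lists and tests were chosen with earlier results of these data known. Named outside the 10 genes are Dpf2, the 4 genes of smallest p in each retinoid list (1 of them is not reported here) and the 2 nearest in profile to each of the 3 genes of widest range. Gapdh, Klf4, Pou5f1, Nanog, Gata6, Sox7, Rarb, Syndig1, Lrat, Hoxa5, the genes at 0 and the genes near Cyp26b1 in profile were named after their values were seen. So were the single markers of neurons and neural progenitors.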

Additional observations from a re-analysis of the deposited data

How the results depend on the processing

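The count of 0 genes past the threshold held with the other scalings, DESeq2 (394 of 29810 genes at an unadjusted p under 0.05, with no filter before the fit), limma-voom (483 of 16078), limma on log2 FPKM and thresholds of 0.01 and 0.1, and became 10 with no filter on low counts, 1 with the replicate block and 20 without replicate 3 of both groups. With 1 library left out it ran from 0 to 44, the 44 being without Baf45d replicate 3. None of the 10 genes passed in any of the 150 alternative estimates, where the smallest adjusted p was 0.196. The sign turned in 17 of them, and the cause was not tested. With the replicate block Cyp26c1 stood at -0.0304. With limma-voom, log2(FPKM + 1) and log2(FPKM + 0.1) Cyp26c1 stood at -0.15, -0.0001 and -0.11, and without replicate 3 of both groups Cyp26b1 stood at 0.0152 and Crabp1 at 0.14. With 1 library left out the log2 fold change ran from -0.2269 to 0.0683 for Cyp26b1, from -0.68 to 0.48 for Cyp26c1, from -0.25 to 0.55 for Aldh1a1, from -0.9566 to 0.0882 for Aldh1a3, from -0.0233 to 0.0713 for Rdh10 and from -0.25 to 0.10 for Crabp1. Cyp26a1, Dhrs3, Aldh1a2 and Crabp2 kept their sign throughout. The log2 ratio of summed levels by role, Baf45d over NC, moved by less than 1 SD of the replicates in log2. For clearance it was -0.0640 with all 6 libraries, 0.0046 without NC replicate 1 and 0.0567 without Baf45d replicate 3, so its sign turned. No gene of the 2 retinoid lists passed in any alternative. The block changed no call for the 10 genes. Cyp26c1, Aldh1a1 and Aldh1a3 had at most 32 counts in a library. Beyond counting error, counts of Cyp26c1 and Aldh1a3 differed between Baf45d libraries, and those of Aldh1a1 between NC libraries.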
